A study of Homo sapiens with 6 samples.

Results

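Death receptors are members of the TNF receptor superfamily whose intracellular death domain recruits the adaptor FADD, which in turn brings in the initiator caspase CASP8. CFLAR (cFLIP) resembles CASP8 but lacks its protease activity, and it binds in the same complex and limits CASP8 activation there. The decoy receptors TNFRSF10C and TNFRSF10D bind the ligand TRAIL (TNFSF10) without passing on a full death signal. The 10 genes described here are the TRAIL receptors TNFRSF10A (DR4), TNFRSF10B (DR5), TNFRSF10C (DcR1) and TNFRSF10D (DcR2), the receptors FAS and TNFRSF1A (TNFR1), the ligand TNFSF10, and the intracellular proteins FADD, CASP8 and CFLAR. They were taken by symbol from a table of read counts for 25343 genes, in which each of the 10 has 1 line.

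The cells were A375, an established human melanoma line, in its parental form. They received either 50 nM panobinostat, an inhibitor of histone deacetylases, or the same volume of PBS as vehicle, both for 24 h, and bulk RNA was sequenced from 3 libraries per group. All libraries come from this 1 line, and the labels do not say whether replicates were separate cultures. The p-values therefore reflect library-to-library spread, possibly technical. In bulk RNA, fewer cells expressing a gene and less RNA per cell cannot be told apart.

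Library totals were 32293283 to 36201208 counts with panobinostat and 34738362 to 38944399 in vehicle. At that depth, 3 counts in a library equal 0.0775 to 0.0928 CPM (counts scaled to a common library size after TMM normalization). The melanoma markers SOX10, MITF, S100B and ERBB3 had reads in every library, whereas MLANA and TYR had 0 counts in all 6. PMEL, a further pigment cell marker, lay at 186 to 204 CPM with panobinostat and 0.492 to 0.697 CPM in vehicle. The summed level of all 7 melanoma markers was 692 to 764 CPM with panobinostat and 1886 to 2023 CPM in vehicle. Of markers of other cell types, 3 fibroblast genes summed to 62.6 to 65.6 CPM with panobinostat and 1.83 to 2.31 CPM in vehicle, and 2 endothelial genes to 2.79 to 3.34 CPM with panobinostat and 0.0516 to 0.259 CPM in vehicle. For 2 epithelial genes the sums were 0.65 to 0.884 CPM with panobinostat and 0.0518 to 0.0775 CPM in vehicle, and for 4 immune genes 0.58 to 0.743 CPM with panobinostat and 0.116 to 0.258 CPM in vehicle. The part of these shifts in the results below was not tested.

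Among the 10 genes, 8 had enough counts to be tested. CFLAR, the inhibitor of CASP8, showed the only change beyond 2-fold, its reads falling to 0.337 of the vehicle level. TNFRSF1A and FAS rose by 1.47-fold and 1.35-fold, TNFRSF10A fell to 0.767 and CASP8 to 0.851 of vehicle, and TNFRSF10B, TNFRSF10C and FADD did not pass the threshold. That makes 2 genes higher and 3 lower by edgeR's quasi-likelihood test at a Benjamini-Hochberg adjusted p under 0.05, or 62.5% of those tested. Over all 15499 genes tested, 82.8% passed, 41.8% as higher and 41.0% as lower, so the share of death receptor genes that changed was not above the background. For 5 of the 8 the libraries of the groups lay apart, against 83.4% of all genes. The median log2 change was -0.11 over the 8 genes and 0.01 over all genes. Scaling by the upper quartile moved the split to 4 higher and 2 lower, and keeping only genes at 5 CPM or more moved it to 4 higher and 3 lower.

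**Figure D1:**
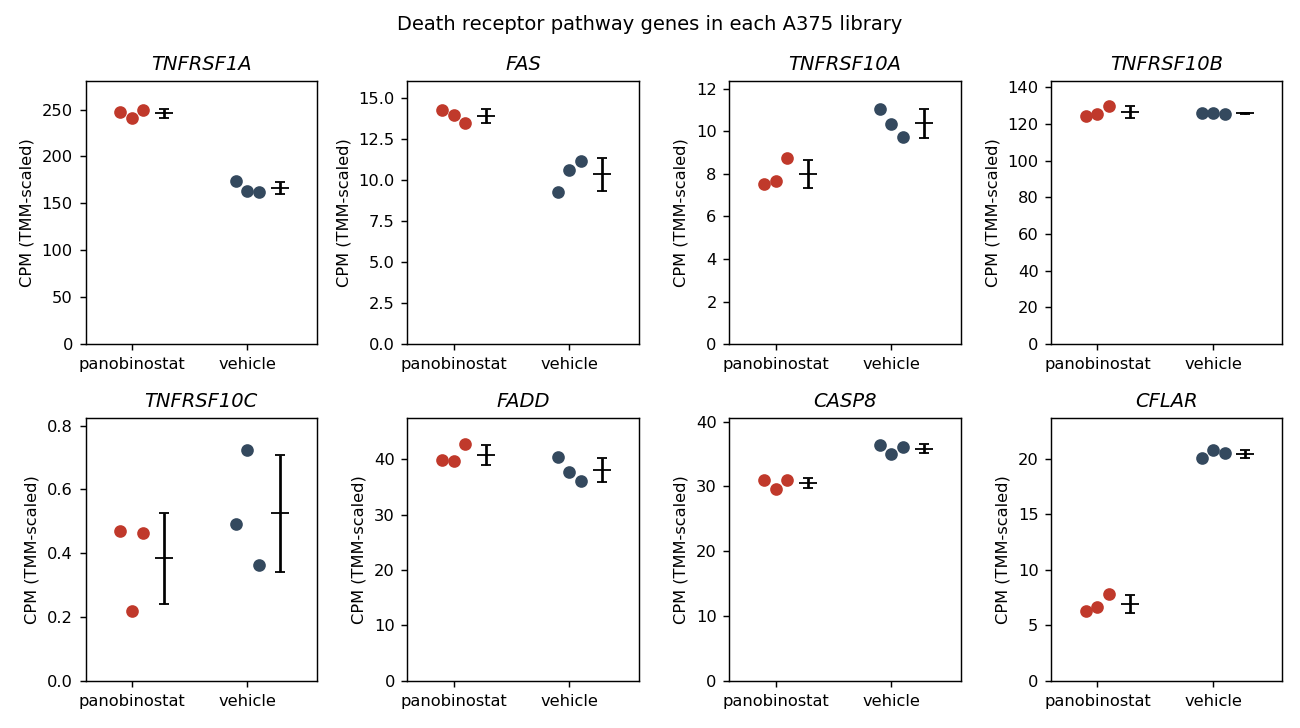
Each panel plots 1 gene in CPM (TMM-scaled, axis from 0), with a point per library, panobinostat on the left and vehicle on the right, and the mean with its SD (n = 3) as a bar beside the points. CFLAR lies at 6.27 to 7.83 CPM in the panobinostat libraries and 20.01 to 20.8 CPM in the vehicle libraries, while TNFRSF10B lies near 126 CPM in both groups.

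The sequence before the start of 1 gene that fell (CASP8) and 1 that rose (TNFRSF1A) is shown for context, and no relation of sequence to the counts was tested. RefSeq promoter windows (GRCh38.p14) were found for 6 of the 10 genes, CFLAR, CASP8, FAS, TNFRSF1A, FADD and TNFSF10. The 250 bases before the most upstream listed start were searched on both strands for the GC box spelled GGGCGG, for CCAAT, for the AP-1 motif spelled TGANTCA, for TATAAA, the core of the TATA box, and for the E-box spelled CACGTG. The stretch shown for CASP8 is 230 bases at chr2:201233213-201233442 on the plus strand, and that for TNFRSF1A is 212 bases at chr12:6342115-6342326 on the minus strand. Both stop before every start annotated for the gene in RefSeq or GENCODE v29. Capitals mark GGGCGG in CASP8 and the reverse complement of CCAAT in TNFRSF1A.
CASP8: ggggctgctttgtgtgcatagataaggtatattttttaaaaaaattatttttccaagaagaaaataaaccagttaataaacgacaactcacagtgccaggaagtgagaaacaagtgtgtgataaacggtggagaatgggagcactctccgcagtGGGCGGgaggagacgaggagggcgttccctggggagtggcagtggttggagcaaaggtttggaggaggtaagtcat
TNFRSF1A: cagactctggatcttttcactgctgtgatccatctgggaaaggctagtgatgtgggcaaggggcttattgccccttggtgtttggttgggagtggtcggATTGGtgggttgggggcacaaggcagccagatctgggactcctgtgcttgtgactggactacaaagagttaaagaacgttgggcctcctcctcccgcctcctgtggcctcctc

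GGGCGG occurred once each in the 250 bases before CFLAR, CASP8 and FAS and in 2 places before FADD, and 42.2% of 27305 promoter windows of this length hold it. CCAAT was found before TNFRSF1A alone among the 6 genes (33% of all windows), TGANTCA before FAS (6.57% of all windows) and TATAAA before TNFSF10 (11.2% of all windows). CACGTG matched in none of the 6 windows and in 6.46% of all. The number of CG dinucleotides was 17 for CFLAR, 6 for CASP8, 14 for FAS, 4 for TNFRSF1A, 32 for FADD and 2 for TNFSF10, with a median of 10 over all windows. Of the 4 genes with a window that changed, both that fell (CFLAR and CASP8) and 1 that rose (FAS) hold GGGCGG. Each direction has 1 window above and 1 below the CG median. FADD, which did not pass the threshold, holds GGGCGG as well and lies above the CG median. A relation of these features to direction was not tested.

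Of the 6 receptors among the 10 genes, TNFRSF1A carried the most reads per length in both groups. TNFRSF1A, the main TNF receptor of most cells, stood at 247, 241 and 249.6 CPM in the panobinostat libraries and 174, 163 and 163 CPM in the vehicle libraries. Every panobinostat library lay above every vehicle library. The log2 change was 0.56 ± 0.04 (SE), with an edgeR adjusted p of 4.56e-10, and it was 0.52 to 0.68 over 14 other processing choices, past the threshold in each.

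FAS, the receptor of Fas ligand, was read at 14.3, 14 and 13.5 CPM with panobinostat, against 9.27, 10.6 and 11.2 CPM in vehicle. All panobinostat libraries lay above all vehicle libraries. The rise of FAS was 0.43 ± 0.08 in log2 (edgeR adjusted p = 7.77e-05). Within a library, the count ratio of FAS to TNFRSF1A was 0.0579, 0.0581 and 0.0541 with panobinostat and 0.0532, 0.0651 and 0.0688 in vehicle. These ratios overlapped, so no difference between the rises of FAS and TNFRSF1A was resolved.

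The TRAIL receptors with a death domain differed from each other. TNFRSF10A (DR4) measured 7.51, 7.69 and 8.73 CPM with panobinostat and 11.1, 10.35 and 9.72 CPM in vehicle, with no overlap. The log2 change was -0.38 ± 0.08 (edgeR adjusted p = 0.000512). TNFRSF10B (DR5), the more abundant TRAIL receptor here, measured 124, 125 and 130 CPM with panobinostat and 126, 126 and 125.5 CPM in vehicle. The vehicle values lay inside the panobinostat range. Its log2 difference was 0.01 ± 0.04 (edgeR adjusted p = 0.852), and the 95% interval ran over folds of 0.951 to 1.06. Upper quartile scaling (0.13) or the 5 CPM filter (0.10) put TNFRSF10B past the threshold as higher. Relative to the median of all genes, TNFRSF10B was at -4e-04 in the reported fit and under upper quartile scaling. It was at 0.11 under the 5 CPM filter and at -0.16 with no filter on low counts. These 2 settings take the median over 11492 and 20990 genes, against 15499 in the reported fit. TNFRSF10B shares 67 bases of exon with RHOBTB2, and TNFRSF10A shares 224 with an antisense RNA not analysed here. Both overlaps are with the opposite strand, and whether the counting used strand is not stated.

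The membrane decoys were near the limit of detection. TNFRSF10C (DcR1) had 17, 8 and 15 counts with panobinostat and 19, 25 and 14 counts in vehicle, overlapping sets. Its log2 difference of -0.44 ± 0.34 did not pass (edgeR adjusted p = 0.237), and the 95% interval of folds was 0.445 to 1.21. It passed the filter on low counts with all vehicle libraries above 10 counts, while panobinostat replicate 2 lay below. TNFRSF10D (DcR2) had 2 counts in all with panobinostat and 2 in vehicle, under the 3 counts per library that a value of 0 allows, and was not tested. Summed, TNFRSF10C and TNFRSF10D had 0.00378, 0.00185 and 0.00335 reads per read of TNFRSF10A plus TNFRSF10B with panobinostat, against 0.00358, 0.00553 and 0.00288 in vehicle. The ratios overlapped. The 4 TRAIL receptors are related in sequence and the handling of reads that match several genes is not stated, so such low counts are uncertain. On its own strand, TNFRSF10C also shares 485 bases of exon with a noncoding RNA and 249 with a protein-coding gene, neither analysed here.

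Per kilobase of merged exons in GENCODE v29, the mean receptor levels with panobinostat were 82.6 ± 1.496 CPM for TNFRSF1A, 30.5 ± 0.746 for TNFRSF10B, 5.40 ± 0.16 for FAS and 2.94 ± 0.242 for TNFRSF10A (SD, n = 3). In vehicle they were 56.0 ± 2.23 CPM for TNFRSF1A, 30.3 ± 0.0732 for TNFRSF10B, 4.01 ± 0.383 for FAS and 3.82 ± 0.245 for TNFRSF10A (SD, n = 3). The order was the same in both groups, but the levels of FAS and TNFRSF10A overlapped in vehicle and lay apart with panobinostat. FADD stood at 22.2 ± 0.958 CPM per kilobase with panobinostat and 20.7 ± 1.19 in vehicle, and CASP8 at 7.75 ± 0.193 with panobinostat and 9.10 ± 0.186 in vehicle (SD, n = 3). CFLAR is left out of this order, since its 12 annotated protein-coding transcripts run from 693 to 14672 bases and the length behind its reads is unknown. Lengths are approximate, since the annotation the authors counted on is not stated.

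The ligand TNFSF10 (TRAIL) was barely detected. It had 2, 2 and 3 counts in the panobinostat libraries and 0 in each vehicle library. No value exceeds 3 counts, the upper limit that a count of 0 allows in a library, so no fold is given, and the gene was too low for the main test. With no filter on low counts edgeR called it higher (adjusted p = 0.0178).

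FADD, the adaptor that links receptor and caspase, measured 39.8, 39.8 and 42.8 CPM with panobinostat and 40.5, 37.8 and 36.1 CPM in vehicle. The highest vehicle library lay within the panobinostat range. The log2 difference was 0.10 ± 0.06 (edgeR adjusted p = 0.12) with a 95% interval of folds from 0.985 to 1.16. With upper quartile scaling (0.22) or the 5 CPM filter (0.19) FADD passed as higher. Relative to the median of all genes, FADD was at 0.09 in the reported fit and under upper quartile scaling. It was at 0.20 under the 5 CPM filter and at -0.07 with no filter on low counts, each with a median over another set of genes. An antisense RNA annotated across 976 bases of its exon was not analysed here, and its reads could not be separated without strand.

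CASP8, the initiator caspase of the complex, was counted at 30.9, 29.7 and 31.0 CPM with panobinostat and 36.4, 35.0 and 36.1 CPM in vehicle. All panobinostat libraries were below all vehicle libraries. Its log2 change was -0.23 ± 0.05 (edgeR adjusted p = 0.000581). The call was lost with upper quartile scaling (-0.11, edgeR adjusted p = 0.0588), which moved the median of all genes by more than 0.1, to 0.13. Relative to the median of all genes the change of CASP8 was -0.24 under either scaling. It was -0.13 under the 5 CPM filter and -0.40 with no filter on low counts. Using no filter on low counts moved that median to 0.12.

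CFLAR counts were 227, 242 and 253 in the panobinostat libraries and 775, 716 and 790 in the vehicle libraries, or 6.27, 6.62 and 7.83 CPM with panobinostat and 20.01, 20.8 and 20.5 CPM in vehicle. The highest panobinostat value is well under the lowest vehicle value. The log2 change was -1.57 ± 0.08 (edgeR adjusted p = 7.06e-12), which put it at percentile 5.39 of the changes of all tested genes, counted from the strongest fall. Its log2 change was -1.67 to -1.45 over 14 other processing choices. The long and short forms of cFLIP come from this 1 gene and cannot be told apart in counts per gene. Nor can fewer transcripts be told from shorter ones, as its protein-coding transcripts run from 693 to 14672 bases. CFLAR shares 96 bases of exon with its antisense gene CFLAR-AS1, which had 4 counts in all with panobinostat and 0 in vehicle, 1488 bases with a pseudogene on the other strand and 445 with a noncoding RNA, the last 2 not analysed here.

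**Figure D2:**
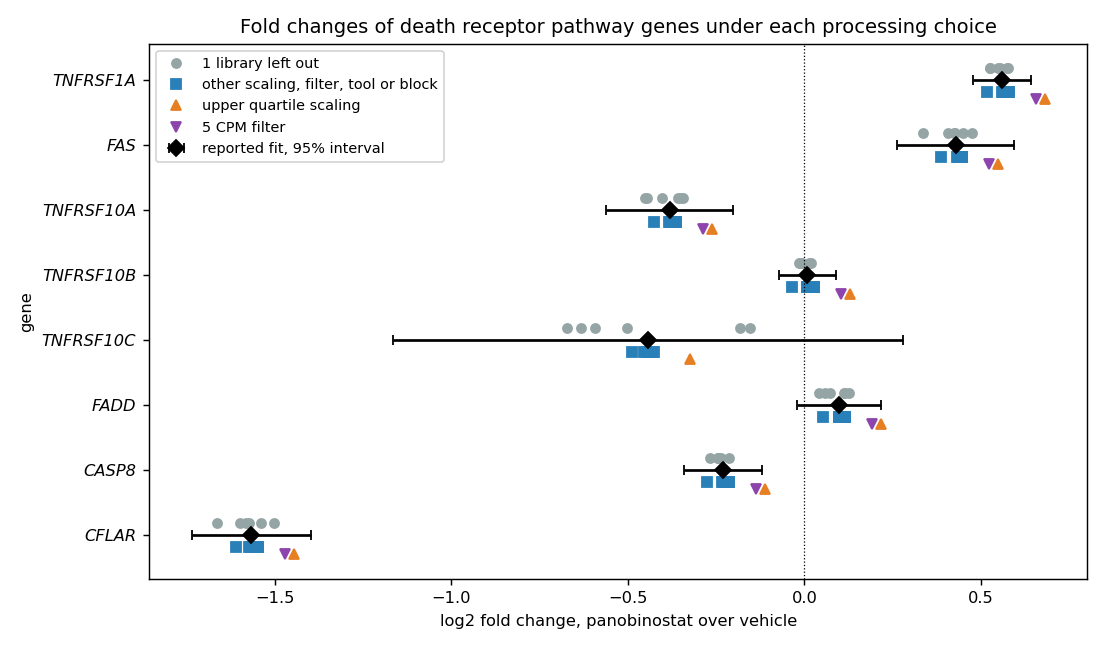
The plot gives the log2 fold change of panobinostat over vehicle for the 8 tested genes, with black diamonds and 95% intervals for the reported fit, grey circles for fits without 1 library, and squares and triangles for other scaling, filters, tools or the replicate block. All genes except TNFRSF10B keep their side of 0 in every fit that includes them. Upper quartile scaling and the 5 CPM filter lie to the right of the reported value for each gene they include.

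The reads of CASP8 and CFLAR can be compared within a library, free of scaling between libraries. The count ratio of CASP8 to CFLAR was 4.93, 4.48 and 3.96 with panobinostat and 1.82, 1.69 and 1.76 in vehicle. The lowest panobinostat ratio was above the highest vehicle ratio. The mean was 4.46 ± 0.489 with panobinostat and 1.76 ± 0.0669 in vehicle (SD, n = 3), 2.54-fold higher, and 2.40 to 2.68-fold when any 1 library was left out. These are ratios of reads, not of molecules, since the transcripts differ in length. The protein of either gene was not measured. No p is given, as both genes were picked with their values known.

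**Figure D3:**
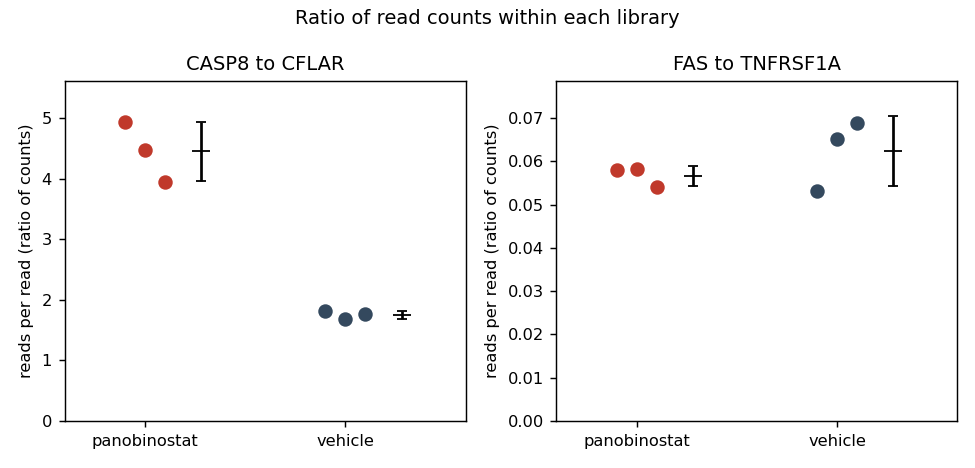
Points are the ratios of read counts in each library, CASP8 to CFLAR in the left panel and FAS to TNFRSF1A in the right panel, with panobinostat left of vehicle and the mean with its SD (n = 3) as a bar. The CASP8 to CFLAR ratios are 3.96 to 4.93 with panobinostat and 1.69 to 1.82 in vehicle, while the FAS to TNFRSF1A ratios overlap.

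CFLAR, CASP10 and CASP8 are neighbours on the same strand of chromosome 2. CASP10, a caspase related to CASP8, measured 4.28, 2.82 and 4.21 CPM with panobinostat and 6.27, 6.35 and 6.82 CPM in vehicle, a log2 change of -0.79 ± 0.13 (edgeR adjusted p = 2.75e-05). All 3 genes of the cluster therefore fell in the reported fit, by unequal amounts, CFLAR the most and CASP8 the least. The CASP8 call was lost with upper quartile scaling. The genes on either side rose. NDUFB3, a subunit of mitochondrial complex I, reached 38.8 ± 0.986 CPM with panobinostat and 28.02 ± 0.999 CPM in vehicle (log2 change 0.47, edgeR adjusted p = 3.58e-07). ALS2CR12 reached 1.07 ± 0.235 CPM with panobinostat and 0.474 ± 0.221 CPM in vehicle (log2 change 1.19, edgeR adjusted p = 0.00131). It was low, with 114 counts in all with panobinostat and 53 in vehicle. Farther out, FAM126B and TRAK2 rose as well, with log2 changes of 0.57 and 0.77. Over all genes tested, 41.0% passed as lower and 41.8% as higher, and the run of directions at this cluster was not tested.

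The 4 TRAIL receptor genes lie side by side on chromosome 8, in the order TNFRSF10B, TNFRSF10C, TNFRSF10D and TNFRSF10A. Of the 4, TNFRSF10D was not tested and TNFRSF10C was near the limit of detection. TNFRSF10B passed only under upper quartile scaling and the 5 CPM filter, as higher. In the reported fit TNFRSF10A alone passed, while 82.8% of all genes tested did. Its neighbour CHMP7, a membrane remodelling protein, rose to 60.3 ± 1.48 CPM with panobinostat, against 48.4 ± 0.797 CPM in vehicle (log2 change 0.32, edgeR adjusted p = 5.95e-06). On the other side of the cluster, RHOBTB2 rose with a log2 change of 0.19 ± 0.06 (edgeR adjusted p = 0.00407).

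**Figure D4:**
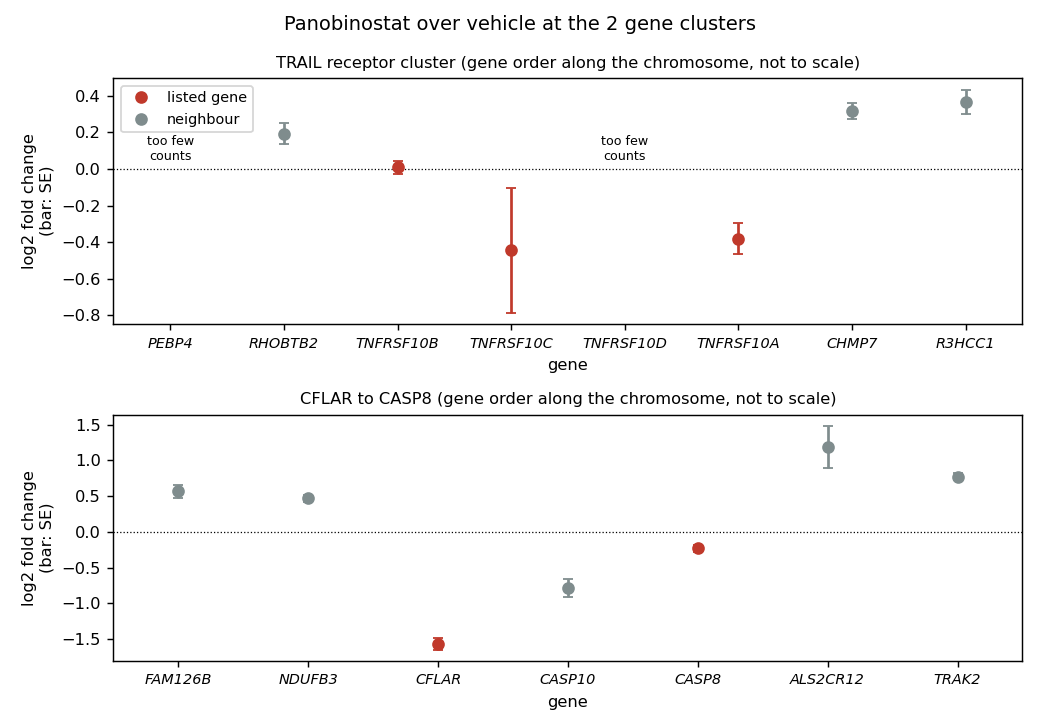
Log2 fold changes of panobinostat over vehicle (bar: SE) for the genes of the TRAIL receptor cluster in the upper panel and for CFLAR, CASP10 and CASP8 in the lower panel, each with the nearest counted protein-coding genes in chromosomal order, not to scale. CFLAR, CASP10 and CASP8 lie below 0 and the 2 neighbours on each side above it, and PEBP4 and TNFRSF10D had too few counts.

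The rest of the pathway was described with 5 lists of 54 further genes, of which 47 were tested. Of these, 14 rose and 26 fell by edgeR, or 85.1% in all against 82.8% of all genes, and the median log2 change was -0.25 against 0.01. Falls made up 55.3% of the tested genes of the lists and 41.0% of all genes, a difference that was not tested. Upper quartile scaling moved the split of the lists to 17 higher and 22 lower, and the 5 CPM filter to 16 higher and 22 lower. Over all genes the first gave 7313 higher and 5453 lower, and the second 4818 higher and 4934 lower.

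Of 12 other TNF receptors and ligands listed, 7 were tested, and 3 rose and 3 fell. That is 42.9% of those tested in each direction, against 41.8% higher and 41.0% lower over all genes. NGFR (p75), the neurotrophin receptor with a death domain and a marker of neural crest cells, was at 78.0, 81.0 and 82.1 CPM with panobinostat and 17.2, 17.7 and 15.2 CPM in vehicle, with a log2 change of 2.27 ± 0.06. TNFRSF21 (DR6), another receptor with a death domain, was at 329, 325 and 325 CPM with panobinostat and 119.8, 117 and 114 CPM in vehicle, a 2.79-fold rise. TNFRSF1B (TNFR2), which lacks a death domain, rose 3.54-fold to 36.1 ± 2.08 CPM, against 10.2 ± 0.142 CPM in vehicle. All 3 were past the threshold in each of 14 other processing choices, DESeq2 and limma-voom among them.

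TNFRSF12A (Fn14) and its ligand TNFSF12 (TWEAK) both fell, with log2 changes of -0.80 ± 0.06 and -1.79 ± 0.28. TNFSF12 was low, with 15, 8 and 16 counts with panobinostat and 50, 55 and 39 counts in vehicle. It passed the filter on low counts with all vehicle libraries above 10 counts, while panobinostat replicate 2 lay below. EDA2R, a receptor of ectodysplasin A2, had a log2 change of -0.30 ± 0.09, which upper quartile scaling left short of the threshold (-0.18, edgeR adjusted p = 0.0727). TNFRSF25 (DR3) stood at 3.57 ± 0.291 CPM with panobinostat and 3.95 ± 0.351 CPM in vehicle and did not pass (edgeR adjusted p = 0.231).

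The death ligands were at or near 0. TNF had 0 counts in all 6 libraries, FASLG had 1 count in all with panobinostat and 0 in vehicle, and LTA had 6 counts with panobinostat and 1 in vehicle. EDAR, a receptor, had 1 count with panobinostat and 0 in vehicle. TNFSF15 (TL1A), the ligand of TNFRSF25, had 5, 11 and 9 counts in the panobinostat libraries and 0 in each vehicle library. With 3 counts taken as the most each vehicle library allows, TNFSF15 was at least 2.96-fold higher, and it was too low to test. Of the soluble decoys, TNFRSF11B (osteoprotegerin), which binds TRAIL, measured 2.87, 2.16 and 2.10 CPM with panobinostat and 2.74, 3.30 and 3.32 CPM in vehicle. These ranges overlapped. Its log2 change of -0.38 ± 0.15 passed narrowly (edgeR adjusted p = 0.0228). The call was lost in 7 of 13 other processing choices, among them leaving out panobinostat replicate 2 (-0.32), panobinostat replicate 3 (-0.31), vehicle replicate 2 (-0.36) or vehicle replicate 3 (-0.35). TNFRSF6B, the decoy of Fas ligand, had 1 count with panobinostat and 1 in vehicle.

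Adaptors, kinases and ubiquitin enzymes of the receptor complexes fell in 13 of 20 tested cases and rose in 5, with CYLD and EDARADD not past the threshold. These shares are 65% and 25%, against 41.0% and 41.8% of all genes, a difference that was not tested. TRAF1, an adaptor that binds TRAF2 and a known NF-kB target, had the largest change of all pathway genes tested here. It measured 7.87, 6.59 and 7.83 CPM with panobinostat and 123, 126 and 119 CPM in vehicle, a log2 change of -4.05 ± 0.06 (edgeR adjusted p = 1.73e-18). Its percentile among the changes of all tested genes was 0.2. TRAF2, TRAF3 and TRAF5 fell too, with log2 changes of -0.74, -0.72 and -1.08.

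MLKL, the executor of necroptosis, measured 7.51, 7.30 and 8.54 CPM with panobinostat and 21.0, 20.8 and 22.6 CPM in vehicle, a log2 change of -1.47 ± 0.08. RIPK3, the kinase that activates MLKL, had 0 counts in all 6 libraries, which allows at most 3 counts in each. Smaller falls were those of OTULIN, a deubiquitinase of linear chains (-0.46), of RBCK1, a subunit of the linear ubiquitin ligase (-0.39), and of FAF1, a FAS-associated factor (-0.30).

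Of the 5 genes of this list that rose, BIRC3 and TNFAIP3 had the largest changes. BIRC3 (cIAP2), a ubiquitin ligase that restrains cell death at TNF receptors, measured 49.6, 46.4 and 42.4 CPM with panobinostat and 8.39, 9.27 and 12.1 CPM in vehicle, a log2 change of 2.22 ± 0.11 (edgeR adjusted p = 2.9e-09). TNFAIP3 (A20), a ubiquitin-editing enzyme, measured 31.6, 31.1 and 30.3 CPM with panobinostat and 7.77, 8.55 and 8.29 CPM in vehicle, a 3.78-fold rise. TRAF1, BIRC3 and TNFAIP3 are all known as NF-kB targets, and TRAF1 fell while BIRC3 and TNFAIP3 rose. No fuller list of NF-kB targets was examined here, and a part of NF-kB in these changes was not tested. ITCH, a ubiquitin ligase known to target cFLIP, rose 1.37-fold, the linear ubiquitin ligase subunit SHARPIN 1.33-fold and the TNFR1 adaptor TRADD 1.23-fold.

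Of 5 further proteins with or binding death effector domains, 1 rose and 2 fell. These shares are 20% and 40%, against 41.8% and 41.0% of all genes. DEDD2 reached 29.7 ± 1.98 CPM with panobinostat and 14.9 ± 1.44 CPM in vehicle, a log2 change of 0.99 ± 0.07. CASP8AP2 (FLASH), known also for its role in histone mRNA processing, fell with a log2 change of -0.74 ± 0.05, and CASP10 is given above. PEA15, which can hold FADD and CASP8 apart, stood at 144 ± 1.57 CPM with panobinostat and 148 ± 2.94 CPM in vehicle, and DEDD at 58.9 ± 1.36 CPM with panobinostat and 59.6 ± 0.655 CPM in vehicle. Neither passed. The 5 CPM filter and upper quartile scaling turned the sign of both, and under the second DEDD passed as higher (edgeR adjusted p = 0.0439).

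Downstream of CASP8, 7 of 14 genes fell and 5 rose. These shares are 50% and 35.7%, against 41.0% and 41.8% of all genes. BID, the BH3-only protein that CASP8 cleaves to engage mitochondria, measured 4.95, 5.28 and 5.11 CPM with panobinostat and 20.4, 19.2 and 19.2 CPM in vehicle, a log2 change of -1.94 ± 0.07 (edgeR adjusted p = 1.54e-13). All panobinostat libraries were below all vehicle libraries. CASP2, a caspase with a long prodomain, fell by 0.30 and the nuclease DFFB by 0.77 on the log2 scale. XIAP, a caspase inhibitor, fell with a log2 change of -0.50 and BFAR, an apoptosis regulator, with -0.72.

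Of the 5 genes of this list that rose, HTRA2, a protease that antagonises XIAP once released, reached 77.6 ± 2.18 CPM with panobinostat and 34.8 ± 2.10 CPM in vehicle, a 2.23-fold rise. CYCS (cytochrome c) measured 182, 193 and 158 CPM with panobinostat and 119.8, 121.5 and 132 CPM in vehicle, a 1.43-fold rise. CASP9, the initiator caspase of the apoptosome, rose 1.25-fold and DFFA, the inhibitor of DFFB, 1.31-fold. DIABLO (Smac), a further antagonist of XIAP, rose by a log2 change of 0.10 ± 0.04 (edgeR adjusted p = 0.0372). That call was lost in 6 of 14 other choices, among them leaving out panobinostat replicate 1 (0.10), panobinostat replicate 3 (0.09), vehicle replicate 1 (0.08) or vehicle replicate 2 (0.08). APAF1, the scaffold of the apoptosome, had a log2 difference of -0.08 ± 0.05 and did not pass. Its sign turned above 0 with upper quartile scaling and the 5 CPM filter, while with no filter on low counts it was called lower (-0.12, edgeR adjusted p = 0.0466). CASP6, a further caspase, stood at 10.04 ± 0.407 CPM with panobinostat and 8.99 ± 0.502 CPM in vehicle. It did not pass (edgeR adjusted p = 0.0698) but did in 5 of 14 other choices, 1 of them leaving out vehicle replicate 3 (0.18).

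**Figure D5:**
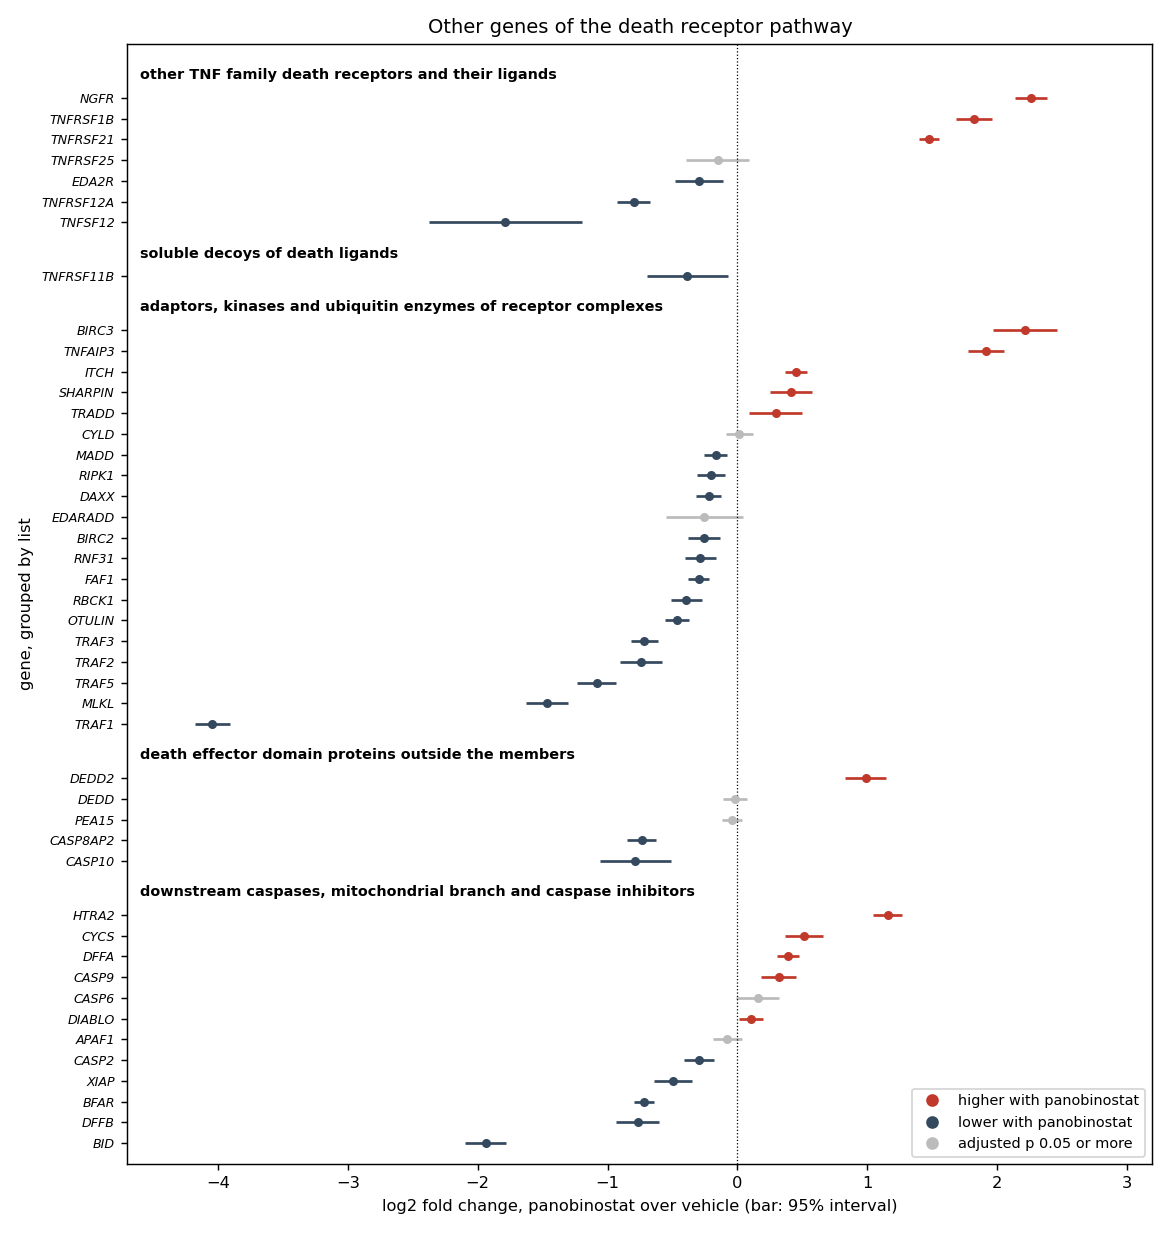
Log2 fold changes of panobinostat over vehicle with 95% intervals for the tested genes of the 5 lists that are reported here, coloured by whether the gene was higher, lower or not past an edgeR adjusted p of 0.05. TRAF1 stands apart at -4.05, and NGFR, BIRC3, TNFAIP3 and TNFRSF1B lie above 1.8.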

How the data were processed

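The authors deposited whole-number read counts per gene symbol, not normalized, 1 column per library. STAR is named only in the title of that table. Its version, the build, annotation and strand setting: not given in the sources used here. Of 25435 lines, 92 spike-in lines with 0 counts were left out.

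Genes were kept with filterByExpr (minimum count 10), scaled by TMM and tested on group with edgeR's quasi-likelihood F test, with Benjamini-Hochberg adjustment over 15499 genes. CPM use TMM-scaled library sizes. A floor of 3 counts per library bounds folds against 0. Intervals of 95% come from the fit, and floors cover counting error only. Steps were also run on simulated counts in which few genes changed, unlike in these data. That run therefore does not check the small changes called here. Replicates differed by more than sampling noise (chi-square per degree of freedom 1.90 to 9.14 within groups).

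The members, lists and motifs were chosen with earlier results of these data known. Genes named are all 10 members, every tested gene of lists of 14 or fewer, the 8 smallest adjusted p-values per direction of the longer list, and neighbours. Some list genes are counted but not reported by name here. Others, such as genes at or near 0 counts, were named after their values were seen. Alternatives were scaling by library size, upper quartile or RLE, 2 filters, DESeq2, limma-voom, a replicate block and leaving out each library. Software was R 4.3.3, edgeR 4.0.16, limma 3.58.1, DESeq2 1.42.0, Python 3.11.15 and matplotlib 3.10.9.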

Additional observations from a re-analysis of the deposited data

How the results depend on the processing

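Of the 10 genes, 4 were higher under the 5 CPM filter and 4 under upper quartile scaling, against 2 in the reported fit. The difference for TNFRSF10B turned below 0 with no filter on low counts (-0.036) and without panobinostat replicate 3 or vehicle replicates 1, 2 or 3 (-0.015 to -0.007), with a range of -0.015 to 0.02 over all fits without 1 library. Signs turned under upper quartile scaling and under the 5 CPM filter for PEA15 (0.082 and 0.056), DEDD (0.102 and 0.076) and APAF1 (0.045 and 0.019). Among alternative fits of single named genes, 632 kept direction and side of the threshold, 15 lost the call, 10 gained one and 11 turned in sign. Samples with the same number did not deviate together (correlations -0.141, -0.108 and -0.268). With the replicate block 12409 genes were called, against 12826, 2 of the 10 genes were higher and 3 lower, and the calls of TNFRSF11B (-0.39) and DIABLO (0.10) were lost. The ratio of the decoys to the other TRAIL receptors changed 0.749-fold, and 0.65 to 0.927-fold without 1 library. The cause of these shifts was not tested. Depth limits TNFRSF10C, TNFRSF10D and TNFSF10.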
